A study of Mus musculus with 8 samples.

Results

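The genes described here are 53 named genes of DNA replication and mitosis, chosen by symbol in the deposited expression table. Of them, 51 matched 1 table entry each among the 46406 genes of the table, 29 of 31 replication genes and 22 of 22 mitotic genes. Cdt1 and Gins2 were not analysed here. The members were chosen by name and not by a rule on their values, but with earlier results of these data known.

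Poly(A) RNA was measured in 8 libraries of anterior neural progenitors (AntNPC) made from E14 mouse embryonic stem cells (mESC). The stem cells were plated at 10000 cells per cm2 and grown without serum or LIF in N2B27 medium, for 3 days with bFgf at 10 ng/ml and for 2 more days without it, and the WNT inhibitor Xav939 at 5 uM was present in the later days. All 8 cultures received this treatment. The 4 WT libraries came from the unedited E14 line, and the 4 null libraries came from 2 lines with the genotype PE Lhx5(-109)-/-, in which CRISPR-Cas9 and pairs of guide RNAs had removed a poised enhancer (PE) named for the gene Lhx5. Each null line, clone 1 and clone 2, is a single clone and gave 2 libraries, so a difference between a clone and WT cannot be told apart from a difference between one clonal line and its parent line. The labels call the samples biological replicates without naming separate differentiations or days, and p-values measure the spread between these libraries.

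Before a chromosome is copied, the origin recognition complex and CDC6 load the MCM helicase onto origins in G1, and CDC45 and GINS then switch the helicase on. PCNA, a sliding clamp opened by the RFC loader, holds the polymerases on the template while ribonucleotide reductase and thymidylate synthase supply deoxynucleotides. The genes for these proteins peak around the G1 to S transition, where E2F factors bind their promoters. CDK1 with its B cyclins, the aurora kinases, the spindle checkpoint and the kinesins act later, and their genes peak in G2 and M. In those phases the MuvB complex with B-MYB and FOXM1 acts through CHR elements, in promoters that often hold CCAAT boxes too. Neural progenitors of the early neural plate divide fast, and such cells hold both groups at high levels.

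The promoters of the replication and mitotic members differed in the letters they hold. RefSeq promoter windows on GRCm38.p6, from 250 bases before to 50 bases after an annotated start, were found for 42 members, with 28 windows of 24 replication genes and 18 windows of 18 mitotic genes. Both strands were searched for the E2F letters TTTGGCGC, TTTCGCGC, TTTCCCGC and TTTGCCGC, for the CHR letters TTTGAA and TTCGAA, and for CCAAT. E2F letters were in 10 replication windows (35.7%) and in 1 mitotic window (5.56%), that of Cdk1, beside 2.26% of all 32851 promoter windows and 4.08% of those of the genes tested. CHR letters were in 14 mitotic windows (77.8%) and 5 replication windows (17.9%), beside 19.2% of all windows and 13% of those of the genes tested. All 14 mitotic windows with CHR letters also held CCAAT. That pair was in 14.3% of replication windows, 7.52% of all windows and 5.44% of those of the genes tested. CCAAT was in 88.9% of mitotic and 57.1% of replication windows, beside 38.1% of those of the genes tested. Overlapping matches, such as 2 E2F matches that share bases in Mcm6, were each counted. These shares were not tested, and a match is a description of the letters and not a measured binding site.

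The following stretches run from 120 bases before to 30 bases after the annotated start and are written 5′ to 3′ on the gene's strand, with E2F, CHR and CCAAT letters in capitals. The first 5 are the replication genes whose stretch holds E2F letters, shown because these letters were more frequent in the replication windows. The last 4 are the mitotic genes whose stretch holds CHR letters and that passed the test in a clone against WT.
Mcm3: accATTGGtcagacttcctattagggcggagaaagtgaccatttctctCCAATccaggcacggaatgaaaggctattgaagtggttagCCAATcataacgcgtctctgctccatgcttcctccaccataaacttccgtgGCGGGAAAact
Mcm6: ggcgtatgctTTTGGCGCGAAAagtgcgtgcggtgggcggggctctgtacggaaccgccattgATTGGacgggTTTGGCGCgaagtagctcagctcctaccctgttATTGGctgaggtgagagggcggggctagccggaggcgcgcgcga
Mcm7: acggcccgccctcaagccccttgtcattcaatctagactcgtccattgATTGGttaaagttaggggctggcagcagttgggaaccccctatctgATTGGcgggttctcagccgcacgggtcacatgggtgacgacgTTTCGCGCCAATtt
Orc1: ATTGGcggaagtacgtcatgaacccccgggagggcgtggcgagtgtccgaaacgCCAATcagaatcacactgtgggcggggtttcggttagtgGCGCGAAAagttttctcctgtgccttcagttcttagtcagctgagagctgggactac
Rfc3: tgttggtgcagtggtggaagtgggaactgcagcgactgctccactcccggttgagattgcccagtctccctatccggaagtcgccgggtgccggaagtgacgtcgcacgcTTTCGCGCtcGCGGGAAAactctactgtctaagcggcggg
Cdc20: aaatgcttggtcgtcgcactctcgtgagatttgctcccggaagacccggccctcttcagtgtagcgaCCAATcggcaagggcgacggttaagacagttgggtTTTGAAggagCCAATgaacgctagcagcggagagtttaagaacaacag
Ccnb2: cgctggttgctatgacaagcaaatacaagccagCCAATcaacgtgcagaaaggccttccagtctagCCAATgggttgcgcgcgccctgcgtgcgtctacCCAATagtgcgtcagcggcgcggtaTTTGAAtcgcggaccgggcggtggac
Bub1: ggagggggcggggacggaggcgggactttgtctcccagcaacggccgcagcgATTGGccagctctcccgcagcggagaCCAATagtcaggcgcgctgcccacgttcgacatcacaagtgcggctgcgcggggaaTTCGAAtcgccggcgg
Cenpa: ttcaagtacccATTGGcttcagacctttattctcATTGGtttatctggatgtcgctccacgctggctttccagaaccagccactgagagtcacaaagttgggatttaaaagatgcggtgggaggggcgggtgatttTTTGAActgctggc
Their positions are Mcm3 chr1:20820283-20820432 (minus strand), Mcm6 chr1:128359676-128359825 (minus strand), Mcm7 chr5:138171854-138172003 (minus strand), Orc1 chr4:108579334-108579483 (plus strand), Rfc3 chr5:151651179-151651328 (minus strand), Cdc20 chr4:118437314-118437463 (minus strand), Ccnb2 chr9:70421525-70421674 (minus strand), Bub1 chr2:127831830-127831979 (minus strand) and Cenpa chr5:30666766-30666915 (plus strand). In Mcm6 the matches TTTGGCGC and GCGCGAAA overlap at position -106, counted with 0 at the annotated start, and a further TTTGGCGC begins at -47. In the 4 mitotic stretches the CHR letters begin between positions -18 and 16, with CCAAT or its complement upstream of them in each.

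Lhx5, the gene the deleted enhancer is named for, checks the labels. It was at 16.9, 17.5, 16.2 and 15.0 FPKM (fragments scaled by gene length and by the mapped total) in the WT libraries, at 1.24 and 0.854 in clone 1 and at 1.9 and 1.26 in clone 2, so every null library was below every WT library. Per-library read counts were not analysed here and depth is unknown. FPKM values of a library summed to 518491 to 528726, and low-value steps gave relative depths of 0.986 to 1.197. The neural progenitor markers Sox1, Sox2, Sox3, Pax6, Nes, Cdh2 and Vim were above 10 FPKM in all 8 libraries, Fabp7 ranged from 0.68 to 18.8 FPKM, and the mesoderm list summed to at most 2.00 FPKM. Clone 1 replicate 2 stood apart in RNA that lacks a poly(A) tail: Rn7sk was at 250.2 FPKM there and at 8.05 to 28.4 in the other 7 libraries, and 54 replication-dependent histone genes summed to 225 FPKM there and to 62.4 to 111 elsewhere. Calls lost without this library are named or counted beside the results.

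In WT cells all members were well expressed and steady. Their WT means ran from 20.5 FPKM (Orc1) to 231 FPKM (Mcm7), with a median of 57.3 FPKM for replication members and 77.3 FPKM for mitotic members, beside 12.4 FPKM over the 14521 genes tested. All 51 members passed the filter of a mean of at least 1 FPKM. The coefficient of variation over the 4 WT libraries ran from 0.362% to 5.33% with a median of 2.59%, and 49 of 51 members were under 5%. Among WT libraries the replication list was lowest in replicate 2, with 22 of 29 members below their WT mean, and the mitotic list was highest there, with 5 of 22 below.

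With both clones pooled, no member passed the test against WT. Every difference below is on the log2(FPKM + 1) scale, null or clone minus WT, from limma fitted on all 14521 genes with Benjamini-Hochberg adjustment over all of them. In the 4 null against 4 WT libraries, 0 of 51 members passed an adjusted p of 0.05, where 0.0551% of all genes did. At an unadjusted p under 0.05 there were 3 members, Mcm6, Orc1 and Top2a, against 4.74% of all genes, and after adjustment here the authors' deposited p-values also left 0 members. All 29 replication members had a negative difference, with a median of -0.082 and a range from -0.18 to -0.0055, and 17 of 22 mitotic members did, with a median of -0.040, beside 61.4% of all genes and an all-gene median of -0.025. The clones differed in this. Of the 29, 28 were negative in clone 1 and 9 in clone 2, beside 8917 and 7228 of 14521 genes. In clone 2 the other 20 were positive, and the median was 0.036. Mcm6, a helicase subunit, was at 154, 150.2, 153 and 152 FPKM in WT, 135 and 130.3 in clone 1 and 146 and 142 in clone 2, and the null libraries all lay below the WT libraries. Its null difference was -0.14 (SE 0.042, limma unadjusted p = 0.00953, adjusted p = 0.808). Orc1, the largest subunit of the origin recognition complex, was at 21.8, 20.9, 19.6 and 19.6 FPKM in WT, 18.7 and 17.8 in clone 1 and 19.7 and 17.6 in clone 2, with overlap between null and WT, and differed by -0.14 (adjusted p = 1). Top2a, the topoisomerase that untangles sister chromatids, was at 223, 228, 227 and 233 FPKM in WT, 220.4 and 197 in clone 1 and 219 and 212 in clone 2, and differed by -0.10 (adjusted p = 1). All its null libraries were below all its WT libraries.

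Clone 1 held less RNA of the replication genes than WT, and most of its mitotic genes did not pass the test. Of 29 replication members, 21 fell and 0 rose, where 11.4% of all genes were called lower and 4.16% higher in this comparison. The median replication difference was -0.20, with a range from -0.42 to 0.094, and 28 of 29 were negative, beside 61.4% of all genes. In 27 of 29 both clone 1 libraries lay below all 4 WT libraries, beside 29.2% of all genes. Of 22 mitotic members, 2 fell (Mad2l1 and Cenpe), 1 rose (Cdc20) and 19 did not pass, with a median of -0.089 and 14 negative. The all-gene median was -0.048. Within the narrower families, 13 of 20 MCM, GINS, ORC, RFC and polymerase genes fell (median -0.19), and 1 of 12 cyclin B, BUB, aurora, CENP and kinesin genes fell (median -0.059). In bulk RNA, fewer cells of a type and less RNA per cell cannot be told apart, so these values do not separate fewer cells in S phase from lower levels in each cell. Without clone 1 replicate 2, 13 of 29 replication members were still lower, when 3.03% of all genes were called in either direction, and 0 of 22 mitotic members were lower. Clone 1 replicate 2, the library left without replicate 1, had a median log2 deviation from the WT mean of -0.23 over replication members. That median was -0.11 over mitotic members and -0.090 over all genes tested. With libraries rescaled to a common median, 14 replication members were lower and 0 higher, while the mitotic calls were 1 lower (Cenpe) and 2 higher (Cdc20 and Plk1), and all calls divided into 980 lower and 958 higher in place of 1662 and 604.

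**Figure D1:**
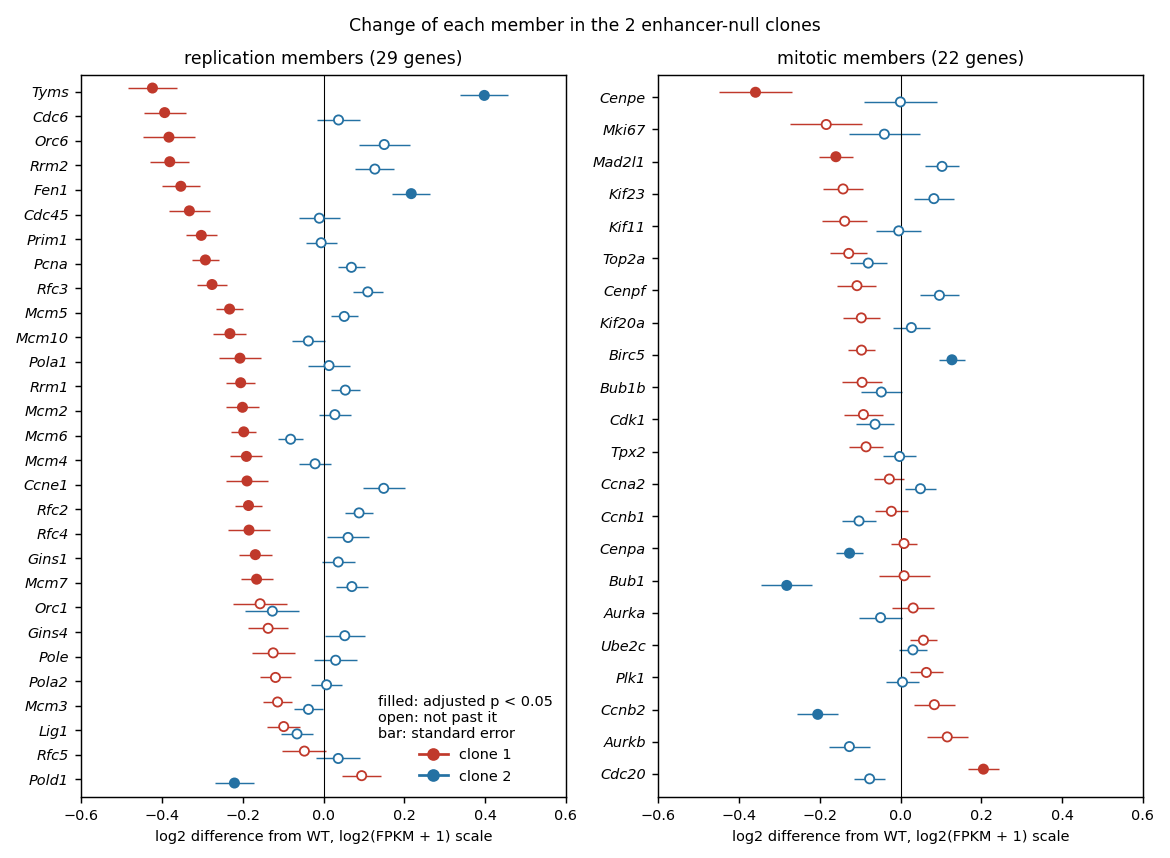
Log2 difference from WT of each replication member (left) and mitotic member (right) in clone 1 (red) and clone 2 (blue) on the log2(FPKM + 1) scale. Bars are standard errors from limma and filled points passed an adjusted p of 0.05. In clone 1, 28 of 29 replication members lie left of 0, and in clone 2 the same list spreads around 0 with Tyms farthest to the right.

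Of the origin licensing genes, Cdc6 and Orc6 had some of the most negative differences in clone 1. Cdc6 (chr11:98907801-98923940, GRCm38), the loader that acts with the origin recognition complex, was at 30.6, 27.6, 29.0 and 29.98 FPKM in WT, 21.7 and 22.4 in clone 1 and 30.1 and 30.02 in clone 2. Both clone 1 libraries were below every WT library and the clone 2 libraries lay within the WT range, and the clone 1 difference was -0.39 (SE 0.052, adjusted p = 0.00427). Orc6 (chr8:85299632-85308278), the smallest subunit of that complex, was at 41.6, 37.3, 38.0 and 39.9 FPKM in WT, 28.1 and 31.7 in clone 1 and 42.7 and 44.5 in clone 2. It fell in clone 1 by 0.38 on the log2 scale (adjusted p = 0.00896), and in clone 2, where both libraries were above every WT library, its difference of 0.15 did not pass (adjusted p = 0.147). Orc1 did not pass in either clone (-0.16 and -0.13). The other subunits Orc2, Orc3, Orc4 and Orc5, which are not members, did not pass in clone 1 (-0.12, -0.077, 0.045 and -0.042).

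The MCM2-7 subunits, which form the ring that unwinds DNA, had differences of similar size in clone 1. In clone 1, 5 of 6 fell (Mcm2, Mcm4, Mcm5, Mcm6 and Mcm7), with differences from -0.23 to -0.17, and Mcm3 did not pass (-0.11, adjusted p = 0.0674), while all 6 had both clone 1 libraries below every WT library. Of all genes, 11.4% were called lower in clone 1, and 29.2% had both clone 1 libraries below every WT library. Without clone 1 replicate 2 the calls of Mcm2, Mcm4 and Mcm7 were lost and 2 of 6 passed, and with rescaled libraries those of Mcm4 and Mcm7 were lost. The Mcm7 call was also lost without WT replicate 1, 3 or 4, and the Mcm4 call without WT replicate 4. Mcm5 (chr8:75109569-75128439) was at 120.2, 114, 118 and 119 FPKM in WT, 101 and 99.0 in clone 1 and 121 and 123 in clone 2, and its clone 1 difference was -0.23 (SE 0.034, adjusted p = 0.00566). In clone 2 no subunit passed, with differences from -0.082 (Mcm6) to 0.07 (Mcm7). Of the factors that switch the helicase on, Cdc45, Mcm10 and Gins1 fell in clone 1 and Gins4 did not pass (-0.14). The Gins1 call was lost without clone 1 replicate 2, without WT replicate 1, 3 or 4, and with rescaled libraries. Cdc45 (chr16:18780447-18811987), which travels with the helicase at the fork, was at 36.2, 36.4, 36.7 and 39.4 FPKM in WT, 29.0 and 29.5 in clone 1 and 38.0 and 35.7 in clone 2. Both clone 1 libraries were below every WT library, by a difference of -0.33 (SE 0.051, adjusted p = 0.00665).

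In clone 1, 4 of the 5 clamp and loader genes fell, beside 11.4% of all genes. Pcna (chr2:132249162-132253314), the sliding clamp, was at 227, 214, 217 and 222 FPKM in WT, 178 and 181 in clone 1 and 228 and 234 in clone 2. Its clone 1 difference of -0.29 (SE 0.034, adjusted p = 0.00328) had the smallest adjusted p of all members in that comparison. Rfc3 (chr5:151642756-151651242), a loader subunit, was at 73.9, 77.6, 76.8 and 76.8 FPKM in WT, 62.2 and 63.4 in clone 1 and 81.2 and 83.4 in clone 2, a clone 1 difference of -0.28 (SE 0.037, adjusted p = 0.00423). Another loader subunit, Rfc2 (chr5:134581366-134601805), was at 115, 111, 117 and 117 FPKM in WT, 100.1 and 102 in clone 1 and 123 and 122 in clone 2, a clone 1 difference of -0.19 (SE 0.034, adjusted p = 0.0122). For Rfc2 and Rfc3 the 3 groups did not overlap, with clone 1 lowest and clone 2 highest, although clone 2 did not pass against WT. Rfc4 passed narrowly in clone 1, with -0.18 (adjusted p = 0.0471), and its call was lost when any 1 of the 8 libraries was left out and with rescaled libraries, where that of Rfc2 was lost too. Rfc5 was at -0.048 and did not pass.

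The polymerases did not move together. Prim1 (chr10:128015168-128030037), the catalytic primase subunit, was at 53.3, 51.1, 53.3 and 53.5 FPKM in WT, 42.9 and 42.4 in clone 1 and 53.1 and 52.1 in clone 2, and fell in clone 1 by 0.30 on the log2 scale (adjusted p = 0.00376). Pola1, the catalytic subunit of polymerase alpha, also fell there (-0.21, adjusted p = 0.0327), a call lost without clone 1 replicate 2, without WT replicate 1, 3 or 4, and with rescaled libraries. Its partner Pola2 and the leading-strand polymerase Pole did not pass (-0.12 and -0.12). Pold1 (chr7:44532746-44548849), the catalytic subunit of the lagging-strand polymerase delta, ran the other way. It was at 78.2, 82.7, 79.3 and 78.0 FPKM in WT, 80.8 and 89.4 in clone 1 and 69.2 and 67.0 in clone 2. Its clone 1 libraries overlapped WT (0.094, adjusted p = 0.213), and its clone 2 libraries were below all others, a difference of -0.22 (SE 0.048, adjusted p = 0.0229).

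Genes that complete the lagging strand and supply deoxynucleotides included Tyms and Fen1, the 2 members farthest apart between the clones. Fen1 (chr19:10199132-10204169), the flap nuclease of Okazaki fragments, was at 55.4, 51.9, 54.8 and 55.3 FPKM in WT, 41.5 and 43.2 in clone 1 and 61.1 and 65.7 in clone 2. It fell in clone 1, with a difference of -0.35 (SE 0.048, adjusted p = 0.00437), and rose in clone 2, with a difference of 0.22 (SE 0.048, adjusted p = 0.0229). Fen1 carries few reads for its FPKM in the authors' deposited table, with a mean of 108.63 reads in WT, which per FPKM and kilobase is 3.03% of the median over members, and the part of this in its values was not tested. The ligase Lig1 did not pass in either clone (-0.10 and -0.066). Tyms (chr5:30058202-30073617), thymidylate synthase, was at 78.7, 71.9, 75.7 and 80.5 FPKM in WT, 55.4 and 58.4 in clone 1 and 95.9 and 107 in clone 2, so the 3 groups did not overlap. Its level was 25.8% lower in clone 1, -0.42 (SE 0.06, adjusted p = 0.00528), and 32.3% higher in clone 2, 0.40 (SE 0.06, adjusted p = 0.00757). Rrm2 (chr12:24708241-24714146), the small ribonucleotide reductase subunit, was at 169, 155, 165 and 172 FPKM in WT, 124 and 129 in clone 1 and 175 and 186 in clone 2, and fell in clone 1 (-0.38, adjusted p = 0.00374). The large subunit Rrm1 fell there too (-0.21, adjusted p = 0.0105), a call lost without clone 1 replicate 2. Cyclin E1 (Ccne1, chr7:38097984-38107534), which drives entry into S phase, was at 43.1, 42.1, 40.2 and 44.9 FPKM in WT, 36.6 and 37.8 in clone 1 and 48.6 and 46.1 in clone 2, and fell in clone 1 (-0.19, adjusted p = 0.0415). The Ccne1 call was lost without any of WT replicates 1, 2 and 4, either clone 1 library or either clone 2 library.

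**Figure D2:**
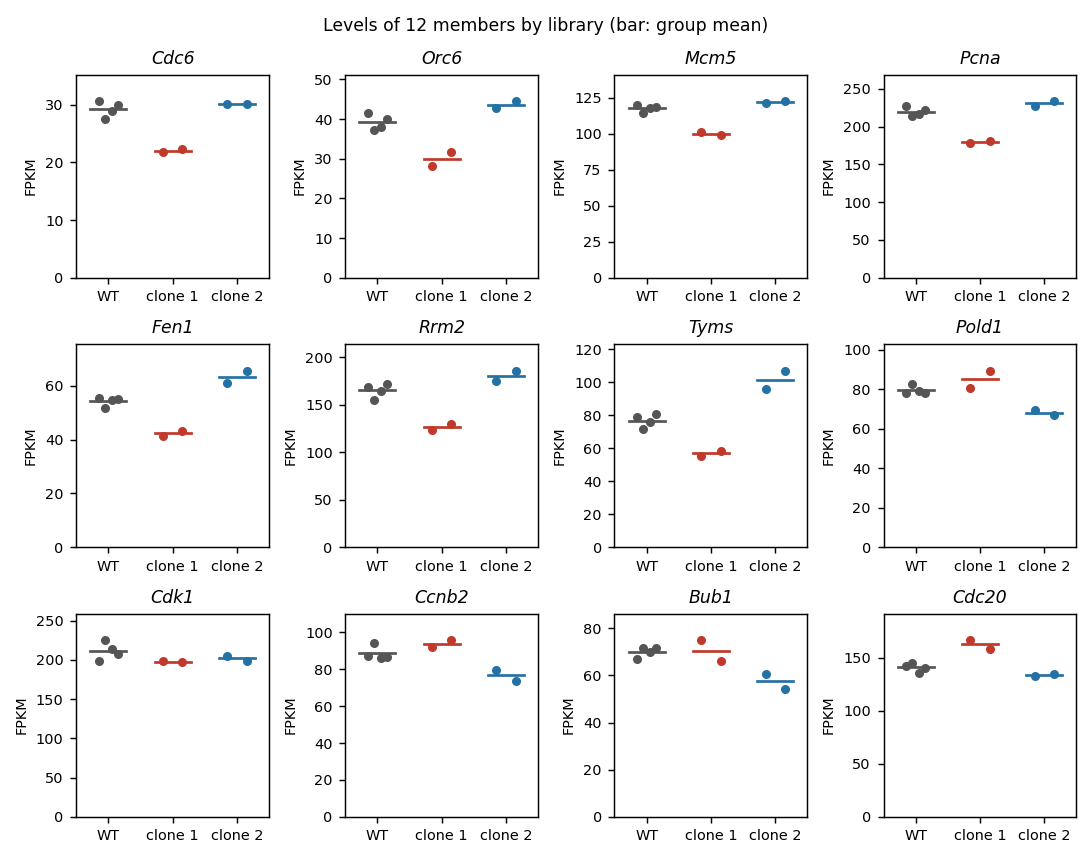
FPKM of 12 members in each library, with a bar at the group mean and axes starting at 0. Cdc6, Orc6, Mcm5, Pcna, Fen1, Rrm2 and Tyms have both clone 1 points below the 4 WT points, Pold1, Ccnb2 and Bub1 have both clone 2 points below them, Cdc20 has both clone 1 points above them, and the Cdk1 points overlap.

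Mitotic members changed singly. The genes of the mitotic engine, Cdk1, Ccna2, Ccnb1 and Ccnb2, did not pass in clone 1, with differences from -0.092 to 0.083. Cdk1 itself, the kinase that starts mitosis, was at 198, 225, 214 and 207 FPKM in WT, 199 and 197 in clone 1 and 205 and 199 in clone 2, and the groups overlapped. Cdc20 (chr4:118432901-118437352), the activator that lets the anaphase-promoting complex destroy cyclin B, was at 142, 146, 136 and 141 FPKM in WT, 167 and 159 in clone 1 and 133 and 134 in clone 2. It rose in clone 1 by 0.20 (SE 0.039, adjusted p = 0.013), opposite to the replication genes, and both its clone 2 libraries lay below all WT libraries without passing (-0.077, adjusted p = 0.216). Mad2l1 (chr6:66535390-66547220), the checkpoint protein that holds CDC20 in check, was at 69.6, 67.1, 66.7 and 70.7 FPKM in WT, 61.7 and 60.6 in clone 1 and 71.4 and 75.9 in clone 2, and fell in clone 1 (-0.16, adjusted p = 0.0377). The Mad2l1 call was lost without WT replicate 1, 3 or 4 and without either clone 1 library. None of the mitotic kinases and their partners Aurka, Aurkb, Plk1, Tpx2 and Birc5 passed in clone 1, and neither did the kinesins Kif11, Kif20a and Kif23. Kif23 (chr9:61915905-61946774), a motor of the central spindle, was at 35.4, 34.8, 35.4 and 34.9 FPKM in WT, 33.3 and 30.2 in clone 1 and 36.4 and 38.0 in clone 2, with clone 1 below WT in both libraries (-0.14, adjusted p = 0.0848).

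Some long mitotic messages were low in 1 clone 1 library. Cenpe (chr3:135212537-135273611), a kinetochore motor, was at 27.1, 27.6, 29.0 and 29.0 FPKM in WT, 24.8 and 19.0 in clone 1 and 28.2 and 28.1 in clone 2. Its clone 1 difference was -0.36 (SE 0.091, adjusted p = 0.0312), and the call was lost without clone 1 replicate 2 and without WT replicate 1, 3 or 4. Mki67, the proliferation antigen, named after its values were seen, was at 55.8, 56.3, 55.9 and 56.2 FPKM in WT, 56.4 and 42.9 in clone 1 and 54.8 and 54.1 in clone 2, with clone 1 replicate 2 lowest by a wide gap. The log2 difference of clone 1 replicate 2 minus replicate 1 fell with transcript length over 11725 protein-coding genes, with a median of -0.012 for annotated principal transcripts under 2 kb and -0.23 for those of at least 6 kb. The 4 mitotic members of at least 6 kb had a median of -0.25 and the 7 under 2 kb had 0.024. Replication members stayed near 0 in each length class, with medians from -0.031 (18 genes of 2 to 4 kb) to 0.092 (Pole, the 1 gene of at least 6 kb). The classes rest on annotated lengths, of 7.557 kb for Mad2l1, 4.995 kb for Rfc2 and 4.375 kb for Cdk1. Each of these had few reads for its FPKM and that length in the authors' deposited table, and the part of this was not tested. Across the 51 members Pearson's r was -0.54 and Spearman's rho -0.48, a description of genes in 1 pair of libraries and not of independent replicates. Clone 2 had no such gradient over all protein-coding genes, with class medians from -0.016 to 0.0058. The part of RNA quality in the clone 1 mitotic values was not tested, and the replication members had a median of -0.18 in clone 1 replicate 1 and of -0.23 in replicate 2.

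**Figure D3:**
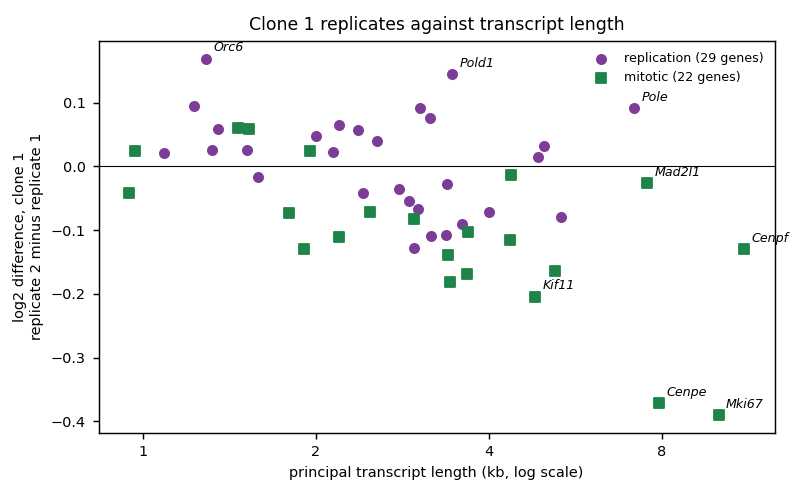
Log2 difference between the clone 1 libraries, replicate 2 minus replicate 1, against the length of the principal transcript in kilobases on a log axis, 1 point per member. Mki67 and Cenpe lie lowest at -0.39 and -0.37, and the longest replication member, Pole, lies above 0 at 0.092.

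In clone 2 few members passed against WT. Of 29 replication members, 1 fell (Pold1) and 2 rose (Fen1 and Tyms), where 6.96% of all genes were called lower and 7.06% higher, and the median was 0.036 beside an all-gene median of 0. In 11 of 29 both clone 2 libraries lay above all 4 WT libraries, beside 24.7% of all genes. The median log2 deviation of the list from its WT mean was 0.039 and 0.036 in the clone 2 libraries, above the -0.031 to 0.02 of the WT libraries. Of 22 mitotic members, 3 fell and 1 rose, with a median of -0.023. Ccnb2 (chr9:70407692-70421547), a B cyclin, was at 87.3, 94.3, 86.2 and 86.7 FPKM in WT, 92.0 and 95.9 in clone 1 and 79.7 and 73.7 in clone 2, a clone 2 difference of -0.21 (SE 0.05, adjusted p = 0.0313). Bub1 (chr2:127801122-127831865), a checkpoint kinase at the kinetochore, was at 67.0, 71.5, 69.8 and 71.6 FPKM in WT, 75.0 and 66.0 in clone 1 and 60.6 and 54.3 in clone 2, a clone 2 difference of -0.28 (SE 0.063, adjusted p = 0.0244). Both genes had clone 2 below all other libraries. Cenpa (chr5:30666777-30674830), the centromeric histone H3, was at 149, 148, 146 and 151 FPKM in WT, 146 and 152 in clone 1 and 138 and 134 in clone 2, and fell by 0.13 on the log2 scale (adjusted p = 0.0373). Birc5 (chr11:117849251-117855743), survivin of the chromosomal passenger complex, was at 99.2, 102, 99.9 and 98.3 FPKM in WT, 94.6 and 91.9 in clone 1 and 108 and 109.7 in clone 2, with no overlap between the 3 groups. It rose in clone 2 by 0.13 (adjusted p = 0.037) and did not pass in clone 1 (-0.10, adjusted p = 0.0778). The 7 calls of clone 2 rested on few libraries, and calls over all genes fell with the same libraries. All 8 libraries gave 2036 of 14521 genes called, against 1078 without WT replicate 3 and 759 without WT replicate 4. Fewer of all genes were also called when either clone 2 library was left out. Without clone 2 replicate 2, 0 members passed, and without WT replicate 3 or without WT replicate 4 only Tyms did. Without WT replicate 1, Birc5, Ccnb2 and Cenpa were lost, and without clone 2 replicate 1, Birc5, Cenpa and Pold1 were.

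The direct comparison of the clones tested their difference. Of 29 replication members, 23 were higher in clone 2 than in clone 1 and 1 (Pold1) was lower, where 24.9% of all genes were called higher and 15% lower. The median was 0.24, beside 0.045 over all genes. Tyms had the highest difference, 0.82 (SE 0.069, adjusted p = 0.000226), followed by Fen1 (0.57), Orc6 (0.53), Rrm2 (0.51) and Cdc6 (0.43), with limma adjusted p-values of 0.000348, 0.00107, 0.000468 and 0.00116. Of 22 mitotic members, 5 were higher (Mad2l1, Cenpe, Cenpf, Kif23 and Birc5) and 5 lower (Ccnb2, Bub1, Aurkb, Cdc20 and Cenpa), with a median of 0.048. That mitotic median turned to -0.0099 with rescaled libraries and to -0.024 without clone 1 replicate 2, whereas the replication median stayed between 0.18 and 0.26 over rescaling and the loss of any 1 clone library. The mitotic count fell from 10 to 6 without clone 1 replicate 2 and to 5 without clone 2 replicate 2. Without clone 1 replicate 2 the calls of Mcm4, Mcm6, Pola1, Pola2, Aurkb, Cenpa, Cenpe and Cenpf between the clones were lost. Fen1 and Tyms were the 2 members that passed in both clones against WT, each lower in clone 1 and higher in clone 2, and both comparisons use the same WT libraries.

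Set against each other within each library, the median log2 deviation of replication members from their WT mean minus that of mitotic members was 0.036, -0.063, 0.0013 and 0.024 in the WT libraries, -0.16 and -0.12 in clone 1, and 0.052 and 0.067 in clone 2. Both clone 1 libraries were below all WT libraries and both clone 2 libraries above them. The ratio of summed replication FPKM to summed mitotic FPKM was 1.22, 1.13, 1.19 and 1.195 in WT, 1.02 and 1.07 in clone 1, and 1.24 and 1.27 in clone 2, which gives the same order. These are values of lists that share their libraries, and no test was made of them. In clone 1 the sum of replication members was 2134 and 2125 FPKM against 2412 to 2495 in WT, while the mitotic sum was 2098 and 1990.1 against 2041 to 2138. In clone 2 the replication sum was 2528 and 2555 FPKM, above every WT library, and the mitotic sum was 2031 and 2008, below every WT library.

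**Figure D4:**
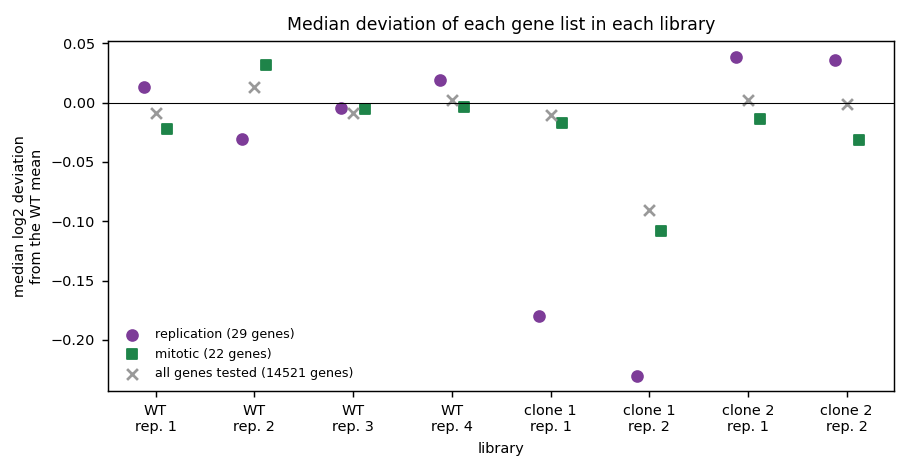
Median log2 deviation from the WT mean of the replication members (circles), mitotic members (squares) and all genes tested (crosses) in each library. In clone 1 the replication median lies at -0.18 and -0.23, while the mitotic median is close to that of all genes in both libraries.

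Other genes of the same pathways, taken from lists of names, were counted in the same way. Of 47 other replication genes tested, 25 were lower and 1 higher in clone 1 with a median of -0.20, beside 11.4% and 4.16% of all genes. In clone 2, 4 were lower and 2 higher with a median of -0.012, beside 6.96% and 7.06% of all genes. Of 65 other mitotic genes, 12 were lower and 3 higher in clone 1 (median -0.080), and 2 were lower and 2 higher in clone 2 (median -0.015). In the null against WT comparison 0 genes of either list passed, and 6 and 3 had an unadjusted p under 0.05, beside 4.74% of all genes. Without clone 1 replicate 2 the clone 1 counts were 8 lower and 0 higher for replication and 2 lower and 2 higher for mitosis, beside 1.84% of all genes lower and 1.19% higher. With rescaled libraries they were 17 lower and 3 higher, and 4 lower and 6 higher, beside 6.75% and 6.6% of all genes. Fewer of all genes were called in clone 2 as well when 1 of its libraries was left out. Without clone 2 replicate 2, 0 genes of either list passed in clone 2. Among these, with the clone 1 and clone 2 differences in that order, were the single-strand binding protein subunit Rpa2 (-0.33 and 0.13), the primase subunit Prim2 (-0.31 and 0.092) and the deubiquitinase Usp1 (-0.34 and 0.14), each lower in clone 1 and also without clone 1 replicate 2.

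Polymerase delta subunits showed several patterns. Pold4, its small accessory subunit, was at 4.94, 7.09, 4.46 and 5.56 FPKM in WT, 8.62 and 8.99 in clone 1 and 3.22 and 2.77 in clone 2. It rose in clone 1, with a difference of 0.61 (SE 0.14, adjusted p = 0.0256), and fell in clone 2, with a difference of -0.69 (SE 0.14, adjusted p = 0.0199). Pold2 was at 77.7, 79.6, 74.2 and 74.0 FPKM in WT, 82.1 and 80.9 in clone 1 and 64.2 and 63.9 in clone 2, and fell in clone 2 by 0.25 on the log2 scale (adjusted p = 0.00993) without passing in clone 1 (0.093). Pold3 fell in clone 1 (-0.20, adjusted p = 0.0473) and was at -0.11 in clone 2, so the 4 subunits did not share 1 pattern. The clone 1 calls of Pold3 and Pold4 were lost without clone 1 replicate 1 and without clone 1 replicate 2. Gathering the 4 subunits into a group was done after their values were seen. The repressor E2f8 and the clamp loader subunit Rfc1 fell in clone 2 (-0.29, adjusted p = 0.0328, and -0.18, adjusted p = 0.04).

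Of the other mitotic genes, Gtse1, a microtubule-associated protein and p53 regulator of G2, was at 46.8, 53.5, 46.6 and 48.6 FPKM in WT, 68.7 and 65.5 in clone 1 and 40.4 and 39.4 in clone 2. It rose in clone 1, with a difference of 0.45 (SE 0.06, adjusted p = 0.00425), and fell in clone 2, with a difference of -0.28 (SE 0.06, adjusted p = 0.0208), the reverse of Tyms and Fen1. The chromatin protein genes Hmgb2 and H2afz fell in clone 1 (-0.23 and -0.21), as did the kinetochore gene Cenph (-0.21), with limma adjusted p-values of 0.00533, 0.0136 and 0.0171. In clone 2 the kinetochore gene Spc24 and the checkpoint gene Mad1l1 rose (0.19 and 0.26) and Kntc1 fell (-0.24), and Spc24 was lower in clone 1 (-0.18, adjusted p = 0.0312). The clone 1 calls of Cenph and Spc24 were lost without clone 1 replicate 2.

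Regulators of S phase entry held several genes on opposite sides of WT in each clone. The list joins cyclins, CDKs and CDK inhibitors with the RB family, E2F factors and their partners, subunits of MuvB, Myc and Mycn. Of its 27 genes found, 23 were tested, since Cdk6, Cdkn2a, Cdkn2b and Cdkn2c had a mean under 1 FPKM. In clone 1, 8 were lower (Ccnd2, Cdk4, Cdkn1c, E2f3, E2f5, E2f6, Tfdp1 and Mycn) and 1 was higher, with a median of -0.14, beside 11.4% and 4.16% of all genes. In clone 2, 1 was lower and 5 were higher, with a median of 0.042, beside 6.96% and 7.06% of all genes. Cdkn1a, which encodes the CDK inhibitor p21, was at 26.9, 41.7, 29.2 and 31.6 FPKM in WT, 72.0 and 60.5 in clone 1 and 18.5 and 15.3 in clone 2. The 3 groups did not overlap, with 1.03 (SE 0.18, adjusted p = 0.017) in clone 1 and -0.88 (SE 0.18, adjusted p = 0.0281) in clone 2. Cyclin D2 (Ccnd2) ran the other way at 58.4, 45.6, 56.9 and 54.6 FPKM in WT, 37.6 and 33.4 in clone 1 and 70.7 and 83.8 in clone 2, with -0.58 (SE 0.11, adjusted p = 0.016) and 0.51 (SE 0.11, adjusted p = 0.0254). Its partner kinase Cdk4 was at 840.2, 751, 786 and 812 FPKM in WT, 658 and 703 in clone 1 and 876 and 964 in clone 2, and fell in clone 1 (-0.23, adjusted p = 0.0272) and rose in clone 2 (0.21, adjusted p = 0.0398). Cyclin D1 (Ccnd1) was at 27.3, 18.3, 24.0 and 24.7 FPKM in WT, 16.3 and 14.9 in clone 1 and 38.4 and 55.3 in clone 2, and rose in clone 2 (0.95, adjusted p = 0.0255) without passing in clone 1 (-0.55, adjusted p = 0.0972). The repressor E2f6 was at 26.5, 24.6, 25.2 and 26.8 FPKM in WT, 19.98 and 19.9 in clone 1 and 29.7 and 31.7 in clone 2, with -0.36 (SE 0.054, adjusted p = 0.00665) and 0.24 (SE 0.054, adjusted p = 0.0245). Cdkn1c, which encodes the inhibitor p57, fell in clone 1 (-0.32, adjusted p = 0.0121), and Myc, an activator of growth genes, was at 11.4, 9.98, 9.58 and 10.4 FPKM in WT and 14.4 and 16.8 in clone 2 and rose there (0.55, adjusted p = 0.00813). The clone 1 calls of Cdkn1a, Cdk4 and Mycn were lost without clone 1 replicate 1, and the clone 2 call of Cdkn1a without clone 2 replicate 1. With rescaled libraries the Cdk4 call was lost in both clones, and the E2f5 and Tfdp1 calls were lost in clone 1. The fits that follow also called fewer of all genes. Clone 1 had 2266 calls with all libraries, 1029 without WT replicate 3 and 1008 without WT replicate 4. Without clone 1 replicate 2, 1 gene of this list (E2f6) was lower in clone 1 and 0 higher. Without clone 2 replicate 2, 0 passed in clone 2, and without WT replicate 3 or 4 the clone 1 counts were 3 lower and 0 higher.

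**Figure D5:**
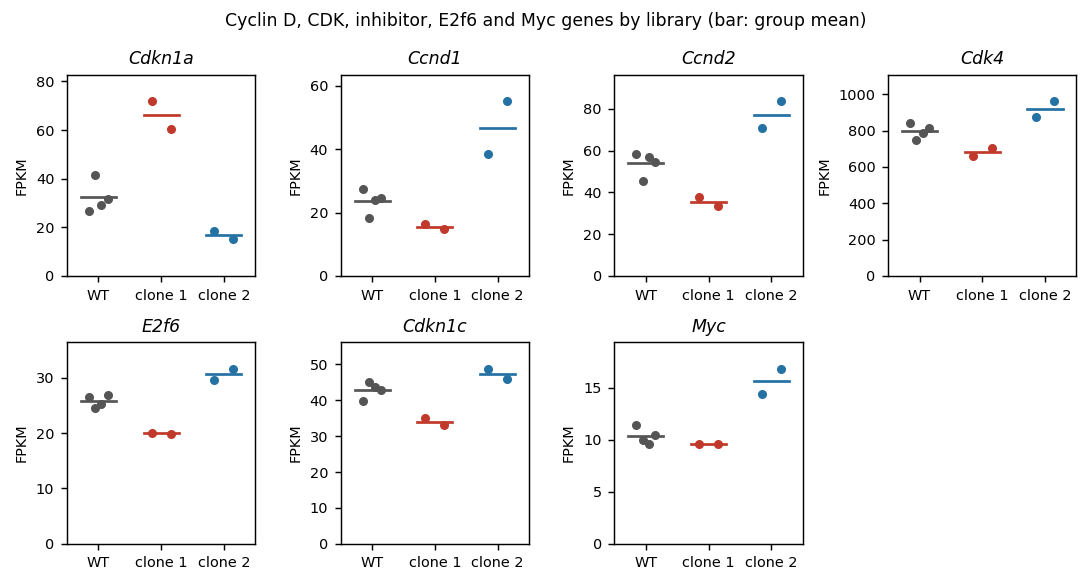
FPKM of 7 regulators of S phase entry in each library, with a bar at the group mean and axes starting at 0. Cdkn1a is highest in clone 1 and lowest in clone 2, and Ccnd1, Ccnd2, Cdk4 and E2f6 have the reverse order, with no overlap between their clone 1 and clone 2 points.

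Markers of cell state moved with the clones as well. The 10 pluripotency and epiblast genes summed to 105 to 134 FPKM in WT, to 201 and 181 in clone 1 and to 87.6 and 76.0 in clone 2, and the 5 surface ectoderm genes to 35.6 to 52.2, to 81.2 and 70.1, and to 41.4 and 29.0. Of the surface ectoderm list, Cdh1, Epcam and Cldn6 rose in clone 1, to 300%, 296% and 317% of WT. Krt8 and Krt18 did not pass there. The 8 neural progenitor genes summed to 350.1 to 374 FPKM in WT, to 322 and 297 in clone 1 and to 362 and 387 in clone 2. Genes of this list moved apart within the sum. In clone 2, Pax6 was at 37.4% of its WT mean (-1.39, limma adjusted p = 0.005) and Sox2 and Sox3 were lower. Sox1, Nes, Cdh2, Vim and Fabp7 were higher there. In clone 1, Vim was above its WT mean and the other genes of the list were below theirs. The 9 neuron genes found summed to 73.9 to 79.7, to 84.0 and 73.4, and to 61.2 and 60.0, and the 5 neural crest genes stayed between 3.24 and 4.71 FPKM. No marker list was at 0. The mesoderm list summed to more in both clone 1 libraries than in any WT library, and its clone 2 sums lay within the WT range. Of its genes, Eomes had a mean of 0.921 FPKM in clone 1 against 0.429 in WT, and Mixl1 was at most 0.07 FPKM in any library. The mesoderm genes were each under a mean of 1 FPKM and were not tested. The summed pluripotency list was higher in both clone 1 libraries, and lower in both clone 2 libraries, than in any WT library. Most of the sum came from Dnmt3b and Pou5f1, and Zfp42, Esrrb and Klf4 of the same list, each under a mean of 1 FPKM and not tested, had clone 1 means of 80.5%, 43.1% and 58.4% of WT. The part of these states in the replication values was not tested.

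Promoter letters were set beside the differences within each list. The 10 replication genes with E2F letters in a window had a median clone 1 difference of -0.18, and the 14 with a window but no such letters had -0.26. With and without CHR letters (5 and 19 genes) the clone 1 medians were -0.28 and -0.21, and with and without CCAAT (15 and 9 genes) they were -0.23 and -0.18. In clone 2 the medians with and without E2F letters were -0.012 and 0.057. Mitotic genes with and without CHR letters (14 and 4 genes) had clone 1 medians of -0.042 and -0.13. These medians are descriptions without a test, and no match says only that the searched letters are not in the window.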

How the data were processed

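The authors computed the FPKM of each gene in the 8 libraries, per the file headers. Beside it, the deposited table gives a mean read count for each genotype, a signal of unstated scaling, and a p-value of unstated test. Per the submitters' processing notes, which give no versions or roles, the tools were FastQC, SAMtools, TopHat2, Cufflinks and DESeq2, on GRCm38 (mm10). Use of strand and the counting of reads shared by similar or overlapping genes were not given in the sources used.

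From these values, log2(FPKM + 1) was fitted for 14521 genes whose mean over the libraries reached 1 FPKM, with limma 3.58.1 in R 4.3.3, with trend and robust moderation and Benjamini-Hochberg adjustment at 0.05. This scale understates changes of low genes. Null against WT used 2 groups, and the clone comparisons used 1 fit of 3 groups that share a spread, which holds the spread within a line and not between lines. The script was tested on simulated data. The written design named a count model for per-library counts, and limma was used because the table holds FPKM. Null columns are numbered within a clone and were assigned to the clone.

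Members, lists and motifs were chosen with earlier results of these data known. Full values are given for members past the threshold, up to 10 per comparison by smallest adjusted p (3 by unadjusted p where none passed), for the member with the smallest p of each role, and for up to 4 genes of the other lists. One gene named by this rule is not reported here. Gene positions are from GENCODE M21 (GRCm38), matched by gene ID. Transcript length is that of the longest APPRIS principal transcript. Promoters are RefSeq windows matched by symbol. Alternatives were another pseudocount (0.1), no filter, rescaled libraries, other moderation, fits of only 2 groups, a correlation within lines, the replicate number as a block, and each library left out.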

Additional observations from a re-analysis of the deposited data

Results flagged for a closer look

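In 5 members, 1 of 4 libraries stood farther from the rest of its group than Dixon's 95% critical value allows, which chance alone gives in about 1 group of 20. Each of the 51 members has a WT group and a null group, so 5 is near that share. The null group joins both clones. WT replicate 2 was low in Prim1 (51.1 FPKM against 53.3 to 53.5) and Fen1 (51.9 FPKM) and high in Ccnb2 (94.3 FPKM). Among the null libraries, clone 1 replicate 1 was high in Aurka (76.0 FPKM) and Plk1 (101.1 FPKM).

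The difference between the clones, tested by limma in the fit of 3 groups, passed in 34 members. On the log2 scale, clone 2 minus clone 1, it was positive in the licensing and helicase genes Orc6 (0.53), Cdc6 (0.43), Cdc45 (0.32), Mcm5 (0.28), Mcm7 (0.24), Mcm2 (0.23), Gins1 (0.21), Mcm10 (0.19), Gins4 (0.19), Mcm4 (0.17) and Mcm6 (0.12). In the clamp, loader and polymerase genes it was positive in Rfc3 (0.39), Pcna (0.36), Prim1 (0.30), Rfc2 (0.27), Rfc4 (0.25), Pola1 (0.22) and Pola2 (0.13) and negative in Pold1 (-0.32). In the remaining replication genes it was positive in Tyms (0.82), Fen1 (0.57), Rrm2 (0.51), Ccne1 (0.34) and Rrm1 (0.26). Among mitotic genes it was positive in Cenpe (0.36), Mad2l1 (0.26), Kif23 (0.23), Birc5 (0.22) and Cenpf (0.20) and negative in Bub1 (-0.29), Ccnb2 (-0.29), Cdc20 (-0.28), Aurkb (-0.24) and Cenpa (-0.13). Of these calls, those of Mcm4, Mcm6, Pola1, Pola2, Aurkb, Cenpa, Cenpe and Cenpf were lost without clone 1 replicate 2. The clones carry the same labelled genotype, and the cause of their differences was not tested.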

How the results depend on the processing

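Null against WT left 0 of 51 members past the threshold under every alternative run. In clone 1 against WT, the 21 lower replication members became 13 to 20 when 1 library was left out (13 without clone 1 replicate 2), and 14 to 21 under the other alternatives except the replicate block, and the 3 mitotic calls became 1 without trend and robust moderation, 1 with no filter on low values, and 1 to 9 when 1 library was left out. In clone 2 against WT, the 3 replication calls ranged from 0 to 3 and the 4 mitotic calls from 0 to 4 when 1 library was left out, and the mitotic calls were 1 without trend and robust moderation and 0 with no filter. Between the clones, the 23 higher replication members ranged from 16 to 22 and the 10 mitotic calls from 5 to 14 when 1 library was left out, and the mitotic calls were 5 in a fit of only the 2 clones. Replicate numbers did not pair the samples, since deviations of same-numbered libraries correlated at -0.085 to 0.022. With the replicate number as a block, the calls were 0 replication and 0 mitotic in clone 1, 0 and 0 in clone 2, and 15 replication (higher) and 5 mitotic between the clones, while of all genes 0.248% passed in clone 1, 0.31% in clone 2 and 20.6% between the clones. Rescaling moved the clone 1 replication median from -0.20 to -0.14 and the mitotic one from -0.089 to -0.031, and the 65 other mitotic genes then gave 4 lower and 6 higher calls in clone 1. The causes of these shifts were not tested. No member's called difference changed sign. Unknown depth per library limits what can be said of members with small differences.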

Other observations

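The authors' deposited table pairs FPKM with mean reads per genotype, and 5 members had far fewer WT reads than their FPKM and annotated principal transcript length would give from the other members. Per FPKM and kilobase, reads were 3.03% of the median over members for Fen1, 21.4% for Rfc2, 22.03% for Cdk1, 27.3% for Mad2l1 and 32.0% for Tyms, and Mcm10 came next at 73.2%. Fen1 and Tyms are also the members that passed in both clones against WT in opposite directions. The counting rule of these reads is not stated, and the part of counting and of annotated length in their values was not tested.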
